A study of Homo sapiens with 12 samples.

Results

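The 6 control samples of a 12-sample series, those labelled SiNTCONTROL (siNT, replicates 1 to 6), were taken by their label alone and used to describe which transcripts C4-2 prostate cancer cells contained at baseline. C4-2 is an established human line derived from LNCaP, kept in RPMI medium with 10% fetal bovine serum at 37 °C, and each control sample carried 50 nM of a nontargeting siRNA pool delivered with Lipofectamine RNAiMAX. All values are therefore those of a single cell line after transfection, and untransfected cells were not analysed here. The other 6 samples received siRNA against CHKA and entered no result.

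Luminal cells of the prostate line the gland and secrete proteases, citrate and zinc into the lumen under the control of androgens, steroid hormones that switch on genes in cells carrying the pioneer factor FOXA1 and the homeobox factor HOXB13. Heat shock proteins hold steroid receptors in a form that can take up hormone. Cancers that arise from these cells usually keep the response to androgens and its secreted products, of which prostate-specific antigen, the product of KLK3, is the one measured in patients.

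Polyadenylated RNA was read as single-end reads, and between 10685184 and 24246055 reads per sample were assigned to genes (siNT replicates 6 and 2). Levels are given as CPM, the count of a gene scaled to a fixed total of reads on genes after TMM normalization, where genes are followed across samples, and as RPKM, CPM per kilobase of the gene's merged exons, where genes are compared with each other. A gene was called detected at 1 CPM or more in all 6 samples. That held for 12373 of 54127 genes (22.9%) and for 11226 of 18883 protein-coding genes (59.5%), while 4912 protein-coding genes (26.0%) had 3 counts or fewer in each sample. The 59.5% is the share to set beside each count of detected protein-coding genes below. At these depths 3 counts stand for 0.124 to 0.281 CPM, and this limit covers counting error only. The study calls its samples biological replicates, but the labels do not say that the 6 were separate cultures, so the spread given below may be partly technical, and in bulk RNA a change in RNA per cell cannot be told apart from a change in the make-up of the cells. Means are given ± SD with n = 6 throughout.

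The proximal promoters of KLK3 and KLK2 are shown because these neighbouring kallikreins are known androgen-induced genes and are 2 of 4 luminal markers chosen for description. The sequences are from RefSeq (GRCh38.p14), run from 250 bases before to 50 bases after the annotated start, and are written 5′ to 3′ on the plus strand. KLK3 lies at chr19:50854665-50854964 and KLK2 at chr19:50873189-50873488. Capitals mark a 15-base stretch that begins with AGAACA in KLK3, the half-site letters of steroid receptor elements, and the GC box GGGCGG.
KLK3: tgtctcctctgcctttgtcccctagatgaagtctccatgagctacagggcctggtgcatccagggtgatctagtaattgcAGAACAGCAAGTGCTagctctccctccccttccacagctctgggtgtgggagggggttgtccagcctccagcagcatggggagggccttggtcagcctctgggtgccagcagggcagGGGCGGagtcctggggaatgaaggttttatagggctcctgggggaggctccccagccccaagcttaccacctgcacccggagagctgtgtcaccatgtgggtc
KLK2: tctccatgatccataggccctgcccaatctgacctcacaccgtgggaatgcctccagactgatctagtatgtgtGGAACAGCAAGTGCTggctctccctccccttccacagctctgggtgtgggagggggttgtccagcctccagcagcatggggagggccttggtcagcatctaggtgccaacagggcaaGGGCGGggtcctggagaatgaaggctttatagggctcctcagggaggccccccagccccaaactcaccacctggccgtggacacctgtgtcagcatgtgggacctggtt

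The aligned promoters were 79.8% identical (245 of 307 aligned positions), and the marked stretch began 170 bases before the start of KLK3 and 176 bases before that of KLK2. It differed by A1G, counted from 1 at its 5′ end with the KLK3 base first. The 14 letters that both share, GAACAGCAAGTGCT, occurred on either strand in 2 of 35116 RefSeq promoters of the same length, those of KLK2 and KLK3. The shorter words are common: AGAACA was found on either strand in 14.8% of all promoters and in 9.52% of the 14008 promoters of detected genes, and GGGCGG in 44.95% and 66.96%. Of the 28 promoters available for 21 androgen-induced genes, 4 held AGAACA and 19 held GGGCGG. These matches are letters in a window, and binding of a factor was not measured.

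KLK3 was one of the most abundant transcripts of the control cells. It ranked 5th of all genes by CPM, at 3081 ± 326 CPM, below EEF2 (4252 ± 284 CPM), HSP90AA1 (3803 ± 209.8 CPM), HSPA8 (3503 ± 381 CPM) and GAPDH (3107 ± 198 CPM). The difference from GAPDH was smaller than the spread of either gene. In the order of replicates 1 to 6, KLK3 stood at 3017, 3236, 2649, 2966, 2996 and 3624 CPM. Replicate 6 was the highest and replicate 3 the lowest, 1.37 times apart.

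HSP90AB1, ENO1, ACTB, RPS6 and ATP5F1B followed KLK3, with means from 3042 down to 2527 CPM. MME, the membrane endopeptidase also known as CD10, came next at 2503 ± 100.4 CPM and a rank of 11. The endoplasmic reticulum chaperones CALR (2474 ± 126 CPM) and HSPA5 (2355 ± 162 CPM) stood beside it. ABHD2, a lipid hydrolase, was at 1968 ± 341 CPM, with replicates 1 to 3 between 1632 and 1724 CPM and replicates 4 to 6 between 2149 and 2467 CPM. The other leading genes were MT-ND4, TPT1, RPL3, EEF1A1, HSPD1 and EIF4G2, and several of these have near-identical copies, to which reads that aligned more than once could not be assigned. The 10 leading genes held 3.16% of the reads and 1120 genes held 50% of them, so no small group of transcripts dominated the libraries. Protein-coding genes took 97.3% of the reads and long noncoding RNAs 0.645%.

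**Figure D1:**
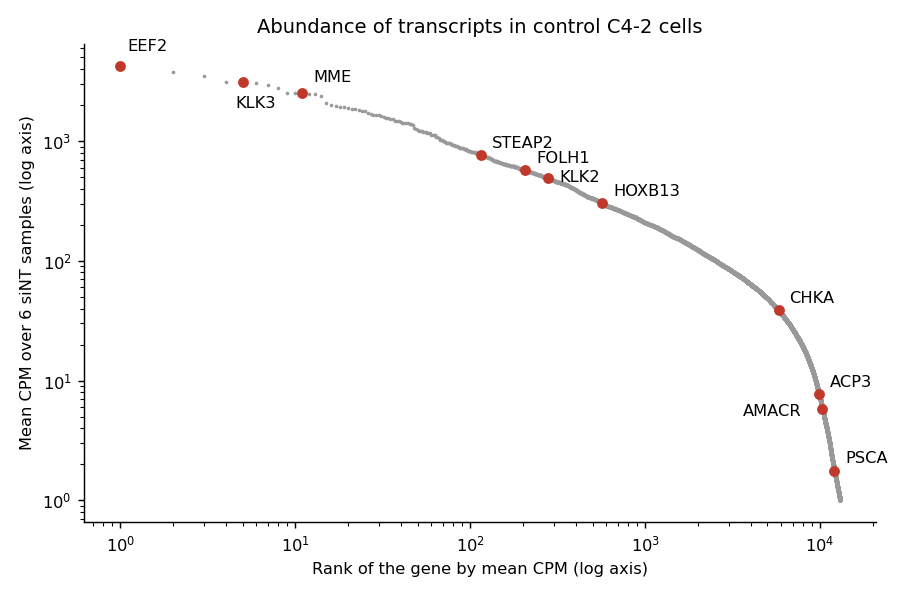
Mean CPM of each gene with at least 1 CPM over the 6 siNT samples (y axis, log scale) against its rank (x axis, log scale), each gray point a gene and red points named genes. KLK3 at 3081 CPM and MME at 2503 CPM lie among the first ranks, and CHKA at 38.6 CPM, ACP3, AMACR and PSCA lie on the falling tail.

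The cells carried a luminal prostate profile. Of 25 luminal marker genes matched in the files, 22 (88.0%) were detected, beside 59.5% of protein-coding genes. The median level of the 25 was 35.4 RPKM, against 6.38 RPKM over all detected genes with a symbol. Like the other lists, the luminal list was chosen with earlier results of these data known, so the share describes its members and tests nothing. Of the 4 chosen markers, which are members of this list, KLK3 (ENSG00000142515, chromosome 19, GRCh38 50854915 to 50860764, plus strand) ranged from 571 to 781 RPKM with a median of 648. KLK2 (ENSG00000167751, chromosome 19, 50861568 to 50880567, plus strand), a related protease that activates other kallikreins, ranged from 67.6 to 92.4 RPKM with a median of 75.5. FOLH1 (ENSG00000086205, chromosome 11, 49145092 to 49208638, minus strand), which encodes prostate-specific membrane antigen, ranged from 103 to 109 RPKM with a median of 108. HOXB13 (ENSG00000159184, chromosome 17, 48724763 to 48728750, minus strand), a homeobox factor of the prostate, ranged from 92.9 to 111 RPKM with a median of 97.5. All 4 stood at a percentile of 95.8 or more among detected genes in RPKM, and FOLH1 varied least, with 1.06-fold between its extreme samples.

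Other luminal genes ranged from above 100 RPKM down to the edge of detection. STEAP1 and STEAP2, of the STEAP family, were at 109 ± 13.7 and 87.7 ± 6.19 RPKM. The transcription factors FOXA1, SPDEF and GATA2 were at 74.9 ± 3.01, 59.1 ± 2.84 and 52.5 ± 3.49 RPKM. With merged exons as length, luminal keratins were lower, KRT18 at 45.7 ± 1.94 RPKM and KRT8 at 21.3 ± 1.23 RPKM. Both genes have processed copies elsewhere in the genome that compete for reads. Their levels also rest on the gene length, as KRT8 against KRT18 went from -1.10 to 0.51 in log2 with the median transcript length. Several textbook prostate genes were near the bottom of the detected range. ACP3, prostatic acid phosphatase, was at 1.81 ± 0.292 RPKM, AMACR, a racemase used as a tissue marker of the cancer, at 1.35 ± 0.136 RPKM, and PSCA at 1.01 ± 0.255 RPKM. TGM4, the prostate transglutaminase, had 19 reads in all 6 samples together and was not detected. MSMB was not matched by identifier and was not analysed here.

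Most markers of other cell types were not detected, and DDC and FN1 were the highest of those that were. Of 14 basal epithelial markers, 1 was detected, the integrin ITGB4 at 1.49 ± 0.139 RPKM. KRT5 had no read in any sample, and TP63 had 2 reads in total. KRT14 had 112 reads in total, at 0.919 to 1.39 CPM, and missed the detection limit in replicate 4 alone. Of 16 neuroendocrine markers, 2 were detected. DDC, the decarboxylase of aromatic amino acids, was the exception in level at 17.7 ± 1.40 RPKM, between 15.7 and 19.9 in single samples. ENO2 was at 1.61 ± 0.480 RPKM, and the granule gene CHGA had 3 reads in total. SYP had 111 reads in total and a mean of 1.16 CPM, and missed the detection limit in replicate 5 alone. Among 18 fibroblast and smooth muscle markers, 5 were detected, led by fibronectin, FN1, at 15.01 ± 1.58 RPKM, with VIM at 2.29 ± 0.249 RPKM. The others were COL1A1, TAGLN and PDGFRB, at 1.58, 0.604 and 0.497 RPKM. The endothelial and immune lists each had 1 detected gene, VWF at 0.273 ± 0.0522 RPKM and CD68 at 1.31 ± 0.208 RPKM, and none of 9 hepatocyte markers was detected. The summed level of the immune markers was between 1.89 and 2.55 RPKM in the 6 samples, against 1463 to 1749 RPKM for the luminal markers.

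Epithelial junctions were well represented. Of 16 genes listed for epithelial junctions and keratins, 15 were detected, with a median of 34.4 RPKM. The highest was EHF at 138 ± 11.5 RPKM, an epithelial ETS factor that is itself neither a junction protein nor a keratin. The adhesion molecule CDH1 followed at 91.3 ± 7.73 RPKM and the claudin CLDN7 at 78.0 ± 4.50 RPKM. KRT19 was low at 0.642 ± 0.139 RPKM and KRT7 had 5 reads in total. CDH2, the mesenchymal cadherin, had no read in any sample, so that CDH1 was on average at least 2451-fold higher per length under each of the 3 gene lengths tried, when CDH2 is set to 3 counts in each library. Of 12 genes of the mesenchymal transition, 1 was detected, SNAI1 at 2.49 ± 0.333 RPKM. VIM and FN1, both detected, were counted with the fibroblast markers and not in this list.

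**Figure D2:**
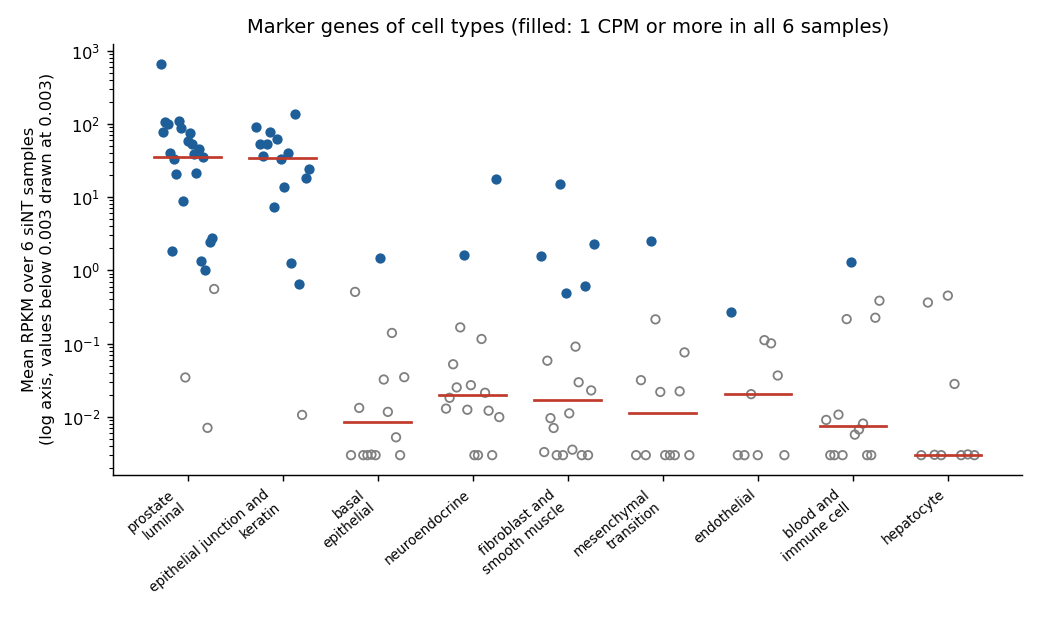
Mean RPKM of each marker gene over the 6 siNT samples (y axis, log scale) by cell type list (x axis), with filled points for genes at 1 CPM or more in all 6 samples, open points for the others and a red line at the list median. The luminal and junction lists centre on 35.4 and 34.4 RPKM, and every other list has its median near or below 0.02 RPKM.

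Most steroid and nuclear receptors were detected, at levels near those of detected genes in general. Of 22 such genes, 17 (77.3%) were detected, beside 59.5% of protein-coding genes. The list median was 5.24 RPKM, and that of its detected members 7.31 RPKM, against 6.38 RPKM over all detected genes with a symbol. Among them were the orphan receptors ESRRA (24.4 ± 1.63 RPKM), NR2F6 (23.4 ± 1.08 RPKM) and NR2F2 (17.9 ± 0.999 RPKM). The vitamin D receptor, VDR, was at 7.52 ± 0.722 RPKM. Several classical steroid receptors were low or had no reads. NR3C2, the mineralocorticoid receptor, was at 1.09 ± 0.160 RPKM. NR3C1, the glucocorticoid receptor, had 2, 1, 2, 6, 1 and 3 reads in replicates 1 to 6. PGR and ESR2 had 38 and 40 reads in total, and ESR1 had none.

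Steroid receptor coregulators and chaperones were all present. All 22 matched partners and coregulators were detected, with a median of 12.0 RPKM. The corepressor subunit TBL1XR1 was at 74.4 ± 8.20 RPKM and the helicase DDX5 at 61.3 ± 7.53 RPKM, next to HOXB13 and FOXA1. The p160 coactivators were lower: NCOA1 was at 22.05 ± 2.74, NCOA2 at 6.99 ± 0.568 and NCOA3 at 4.89 ± 0.545 RPKM. NCOA2 was above NCOA3 in 6 of 6 samples, by 0.52 ± 0.11 on the log2 RPKM scale (exact sign-flip permutation test, two-sided, adjusted p = 0.0346). The size rests on the gene length, being 1.43-fold with merged exons and 17.98-fold with the median transcript length. All 18 chaperone genes were detected, with a median of 77.9 RPKM, and 11 of them lay in the top 10% of detected genes. HSP90AB1 was at 1021 ± 25.6 RPKM, HSP90AA1 at 746 ± 41.2 RPKM and HSPA8 at 722 ± 78.7 RPKM. The cochaperone PTGES3, or p23, was at 250.3 ± 9.66 RPKM. The immunophilin FKBP4 was at 109 ± 6.63 RPKM and its androgen-induced relative FKBP5 at 19.2 ± 1.35 RPKM. FKBP4 was 5.71-fold above FKBP5 (21.6-fold with the median transcript length) and higher in 6 of 6 samples (exact sign-flip permutation test, adjusted p = 0.0346). HSPA1A and HSPA1B are nearly identical, so their values of 1.32 ± 0.222 and 53.4 ± 3.94 RPKM cannot be assigned surely to either gene.

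Such pair comparisons were made for 31 pairs of related genes, tested over the 6 samples and adjusted together by the Benjamini-Hochberg method. In 28 pairs the 6 samples agreed in direction, and each of these had p = 0.03125, the smallest that an exact sign-flip test of 6 values allows. The test takes the 6 samples as independent, which the labels do not establish, so its p-values may overstate the evidence. It speaks to the spread between samples alone, and an error in a gene's length would shift all samples together. With the median transcript length in place of merged exons direction turned for HSP90AB1 and HSP90AA1, KRT8 and KRT18, STEAP1 and STEAP2, LDHA and LDHB, and ODC1 and AMD1, and no order is given for them. With the longest transcript SLC39A6 and SLC39A7 turned as well, as did FASN and ACLY, which had not passed the test.

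Androgen-induced genes were broadly transcribed in serum-containing medium. Of 32 matched androgen-induced genes, 28 (87.5%) were detected, beside 59.5% of protein-coding genes, with a median of 18.7 RPKM. KLK3 was 8.65-fold above KLK2 (log2 difference 3.11 ± 0.07) and 16.5-fold above KLK4 (4.05 ± 0.17) per length, in 6 of 6 samples each (exact sign-flip permutation test, adjusted p = 0.0346). With the median transcript length the folds were 5.45 and 27.3. The annotated span of KLK2 starts 5′ of the promoter printed above, which lengthens the gene and lowers its RPKM. SORD, sorbitol dehydrogenase, was at 87.3 ± 5.43 RPKM, and the transporter ABCC4 at 45.8 ± 3.45 RPKM. TMPRSS2, a serine protease whose promoter is often fused to ETS genes in this cancer, was more variable, with 26.6, 31.9, 26.2, 35.9, 32.5 and 43.6 RPKM in replicates 1 to 6. Replicate 6 was highest for TMPRSS2, KLK3 and KLK2. NDRG1 was at 8.64, 8.28, 8.96, 14.8, 12.2 and 14.97 RPKM, higher in replicates 4 to 6 than in replicates 1 to 3. NNMT and STEAP4 missed the detection limit with means of 1.28 and 1.02 CPM.

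The genes that make or clear androgens were sparse. Of 25 matched members, 9 (36.0%) were detected, below the 59.5% of protein-coding genes, and the list median was 0.169 RPKM. RDH11, a retinol dehydrogenase, was at 51.7 ± 3.28 RPKM and HSD17B10, a mitochondrial hydroxysteroid dehydrogenase, at 39.7 ± 1.97 RPKM. The steroid reductases SRD5A1 and SRD5A3 were at 4.27 ± 0.444 and 5.09 ± 0.406 RPKM, and their difference missed the threshold (SRD5A1 minus SRD5A3 -0.26 ± 0.24 on the log2 scale, 1 of 6 samples positive, exact sign-flip permutation test, adjusted p = 0.0668), although with the longest transcript SRD5A3 was 2.09-fold higher and the pair passed it. CYP17A1, needed for synthesis from cholesterol, had 20 reads in total, and AKR1C3, which reduces androgen precursors, had 13. The glucuronidating enzymes UGT2B15 and UGT2B17 had 129 and 45 reads in total, in a family of closely similar genes.

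**Figure D3:**
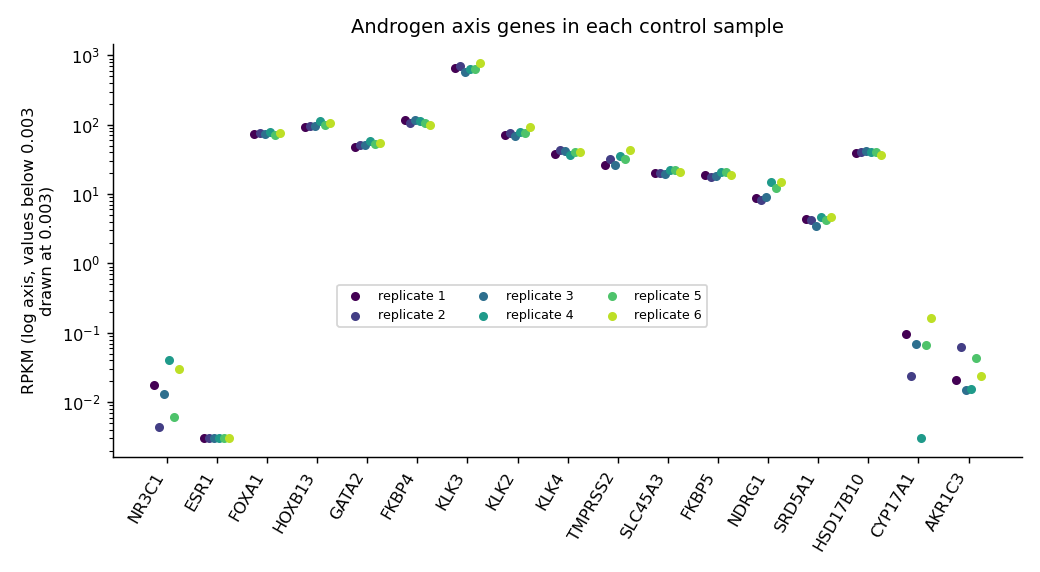
RPKM (y axis, log scale) of androgen axis genes (x axis) in each siNT sample, 1 point per sample colored by replicate. KLK3 lies between 571 and 781 RPKM and KLK2 between 67.6 and 92.4 RPKM, while NR3C1, CYP17A1 and AKR1C3 hold a few reads per sample and ESR1 none.

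The secretory apparatus was expressed in full. All 50 genes of the secretory pathway list were detected, 49 of them above the median of all detected genes and 30 in the top 10%, with a list median of 48.3 RPKM. CALR and HSPA5, which fold glycoproteins, were at 883 ± 45.1 and 361 ± 24.8 RPKM. The disulfide isomerase PDIA4 was at 291 ± 20.2 RPKM, 3.29-fold above PDIA6 in 6 of 6 samples (exact sign-flip permutation test, adjusted p = 0.0346). This fold was 2.43 with the longest and 2.30 with the median transcript length. RPN2, a subunit of the oligosaccharyl transferase, was at 185 ± 4.70 RPKM and the translocon subunit SEC61B at 106 ± 8.58 RPKM. The lowest members were the Golgi matrix genes GOLGB1 and GOLGA2, at 6.48 ± 1.43 and 6.21 ± 0.780 RPKM. This list was among the steadiest, its median deviation in log2 CPM running from -0.03 to 0.05 across samples.

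Of 35 matched secreted proteins, 23 (65.7%) were detected, a share near the 59.5% of protein-coding genes. After KLK3 came PSAP, the lysosomal and secreted prosaposin, at 261 ± 17.8 RPKM, and AZGP1, a zinc-binding glycoprotein, at 68.9 ± 6.82 RPKM. GDF15, a stress-induced growth factor, varied more than any other member. It was at 68.2, 87.4, 88.9, 145, 113 and 195 RPKM in replicates 1 to 6, 2.86-fold between the extreme samples, and replicates 4 to 6 were above replicates 1 to 3. IGF1, a growth factor usually made by stroma and liver, was detected at 4.25 ± 0.305 RPKM, between 3.90 and 4.59 in single samples. NPY and KLK11 had no read in any sample.

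Choline kinase, the target of the siRNA given to the other samples of the series, was moderately expressed at baseline. CHKA, which phosphorylates choline in the first step of phosphatidylcholine synthesis, was at 10.6, 10.1, 9.47, 10.3, 10.2 and 9.002 RPKM in replicates 1 to 6, above 62.2% of detected genes. Its paralog CHKB had 88 reads in total and a mean of 0.308 ± 0.0784 RPKM, but 72.5% of its exonic bases overlap exons of another gene in the files, and reads on 2 genes were left uncounted. The 31.9-fold difference between the paralogs (58.4-fold with the median transcript length, adjusted p = 0.0346, exact sign-flip permutation test) includes any reads lost to that overlap, and their part was not tested. Of 23 genes of the choline and Kennedy pathway, 18 (78.3%) were detected, beside 59.5% of protein-coding genes. The final enzyme CHPT1 was at 101 ± 5.90 RPKM, 15.99-fold above CEPT1 in 6 of 6 samples (exact sign-flip permutation test, adjusted p = 0.0346). This fold was 13.5 with the longest and 19.7 with the median transcript length. The transporters SLC44A4 and SLC44A2 were at 54.1 ± 2.45 and 27.0 ± 1.44 RPKM. The CTP transferring enzymes PCYT1A and PCYT2 were both at 11.8 RPKM (SD 0.376 and 0.897), with a mean log2 difference between 0.00 and 0.01 and single samples from -0.26 to 0.18 (exact sign-flip permutation test, adjusted p = 0.969), but with the median transcript length PCYT1A was 1.53-fold above PCYT2.

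Of 21 matched genes of fatty acid synthesis, 19 were detected and 13 lay in the top 10%, with a median of 50.0 RPKM. SCD, the stearoyl desaturase, was at 259 ± 27.7 RPKM, the elongase ELOVL5 at 189 ± 8.85 RPKM, fatty acid synthase, FASN, at 174 ± 23.0 RPKM and the citrate lyase ACLY at 167 ± 10.0 RPKM. The difference between FASN and ACLY was smaller than the spread between samples (log2 0.05 ± 0.15, exact sign-flip permutation test, adjusted p = 0.452), but with the median transcript length FASN was 8.20-fold above ACLY. ACSL1 was 2.08-fold above ACSL3 in 6 of 6 samples (exact sign-flip permutation test, adjusted p = 0.0346), and 1.40-fold with the median transcript length. ACSL5 was not detected. Of 26 sterol genes 25 were detected, with a median of 20.6 RPKM, among them the sterol sensor INSIG1 at 149.7 ± 19.1 RPKM. Of 23 genes of fatty acid oxidation 22 were detected, with a lower median of 10.3 RPKM. CPT1A, which admits fatty acids to mitochondria, was at 53.4 ± 5.16 RPKM, 7.01-fold above CPT2 in 6 of 6 samples (exact sign-flip permutation test, adjusted p = 0.0346). This fold was 3.96 with the longest and 19.8 with the median transcript length.

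Most genes of glycolysis and the citric acid cycle were detected. Of 30 glycolytic genes 23 (76.7%) were detected, beside 59.5% of protein-coding genes. The 6 at or under 3 counts in each sample included HK3, PGAM2, PKLR and LDHC, forms typical of other tissues. GAPDH was at 1297 ± 82.5 RPKM and ENO1 at 566 ± 40.6 RPKM. ENO1 exceeded the neuronal form ENO2 359.8-fold (527.8-fold with the median transcript length, adjusted p = 0.0346, exact sign-flip permutation test). HK1 was 1.39-fold above HK2 (2.27-fold with the longest and 3.19-fold with the median transcript length), and HK2 itself was higher in replicates 4 to 6 (25.2 to 27.4 RPKM) than in replicates 1 to 3 (18.1 to 20.2 RPKM). Of 27 genes of the citric acid cycle 26 were detected, with a median of 33.5 RPKM and deviations between -0.04 and 0.03. MDH2 was at 176 ± 5.75 RPKM, and the isocitrate dehydrogenases IDH1 and IDH2 were at 129 ± 7.64 and 98.4 ± 4.22 RPKM.

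Of 24 zinc genes 20 (83.3%) were detected, beside 59.5% of protein-coding genes. Among them were the importer SLC39A6 at 74.9 ± 2.25 RPKM and the exporter SLC30A4 at 64.8 ± 2.34 RPKM. Metallothioneins, which bind zinc, split: MT2A was at 44.6 ± 7.01 RPKM and MT1X at 9.14 ± 1.38 RPKM, and MT1G had no read. Of 17 polyamine genes 15 were detected, with ODC1, the first enzyme, at 277 ± 30.4 RPKM and AMD1 at 162 ± 8.78 RPKM. Of 26 serine, one-carbon and glutamine genes 25 were detected, with a median of 42.1 RPKM. PSAT1 led them at 239.9 ± 13.7 RPKM.

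All 34 cell cycle genes were detected, 33 of them above the median of all detected genes, with CDK1 at 193 ± 11.4 RPKM and MKI67 at 18.1 ± 3.05 RPKM. Of 26 matched interferon-stimulated genes 13 (50.0%) were detected, near the 59.5% of protein-coding genes, and those 13 had a median of 1.23 RPKM, with ISG15 at 16.6 ± 2.30 RPKM. The immediate early genes FOS and EGR1 were not detected, with 59 and 65 reads in total. DDIT4, induced by nutrient and oxygen stress, was at 145, 159, 152, 239, 208 and 265 RPKM in replicates 1 to 6, with replicates 4 to 6 above replicates 1 to 3. Of 26 genes altered in prostate cancer 20 (76.9%) were detected, beside 59.5% of protein-coding genes. The ETS genes ERG and ETV1 had 2 and 5 reads in total, so no fold between them is given. Of 11 matched long noncoding RNAs, picked as abundant or prostate transcripts, 7 (63.6%) were detected, beside 22.9% of all genes. GAS5 was at 47.8 ± 6.79 RPKM and MALAT1 at 18.4 ± 2.53 RPKM, and the prostate transcript PCA3 had 40 reads in total.

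Most transcripts varied little between the 6 samples, and those of the mitochondrial genome varied most. Over 13132 genes with enough counts the median biological coefficient of variation (BCV) was 7.92%. BCV estimates the relative SD between samples beyond counting noise, with each gene's value drawn toward the trend over genes of like abundance. For steady genes it lies above the gene's own spread: FOLH1, at 572 ± 12.4 CPM, was given a BCV of 7.48%. Among 9411 genes at 10 CPM or more 41 had a BCV of 20% or more, and 15 of these were the 15 mitochondrial genome genes at that level. The share of reads on the mitochondrial genome was 1.55, 0.804, 2.52, 0.953, 0.570 and 0.522% in replicates 1 to 6, 4.83-fold between the extreme samples and 2.96-fold without replicate 3. For each of the 13 mitochondrial mRNAs replicate 3 was highest and replicate 6 lowest. MT-ND4, a subunit of respiratory complex I, stood at 3489, 1847, 5239, 1833, 1233 and 1181 CPM. The ratio of the highest to the lowest sample ran from 3.42 for MT-ND6, the mRNA coded on the other strand, to 7.52 for MT-ND3, which had the largest BCV of all genes ranked, 52.6%. Over all genes at 10 CPM or more the median of this ratio was 1.21. MTND2P28 and MTATP6P1, nuclear copies of mitochondrial genes, varied with them, with BCV of 42.8% and 38.6%. The share of alignments that were not unique moved the same way between the extremes, 29.7% in replicate 3 against 26.1% in replicate 5 and 26.5% in replicate 6, and its part in the mitochondrial differences was not tested.

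**Figure D4:**
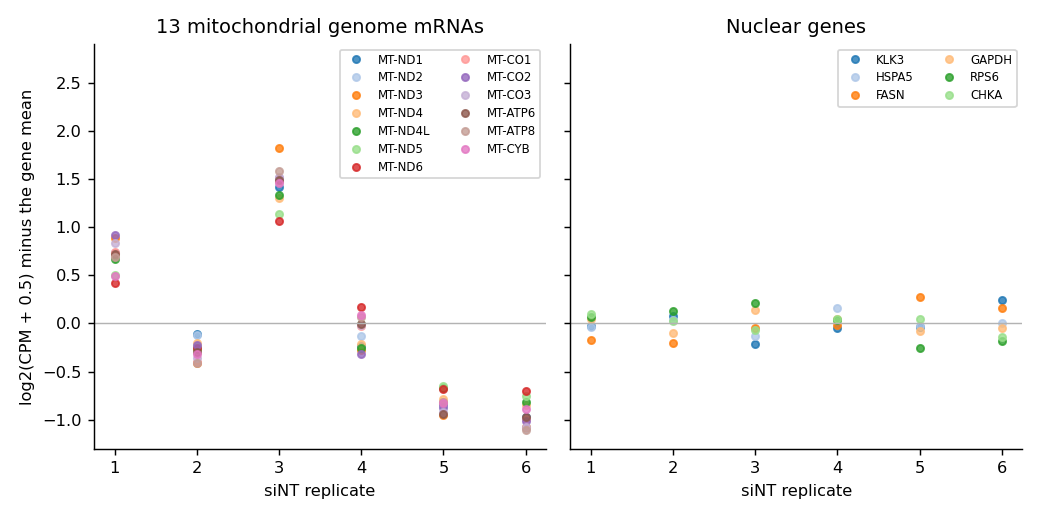
Deviation of log2(CPM + 0.5) from the gene's mean (y axis) in siNT replicates 1 to 6 (x axis) for the 13 mitochondrial genome mRNAs (left) and 6 nuclear genes (right), 1 point per gene and sample. The mitochondrial mRNAs move together, with a median of 1.47 in replicate 3 and -0.97 in replicate 6, while the nuclear genes stay close to 0.

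**Figure D5:**
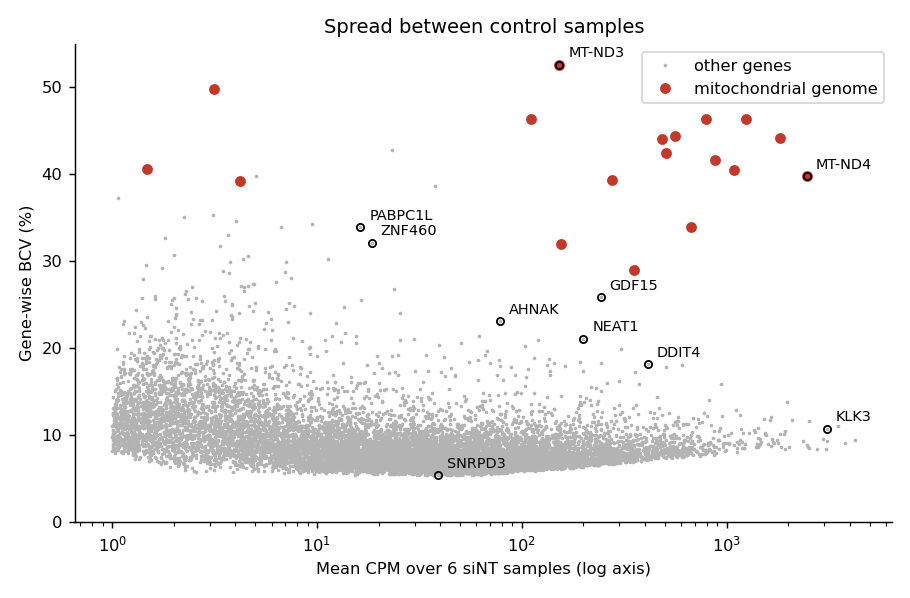
Gene-wise BCV in percent (y axis) against mean CPM (x axis, log scale) over the 6 siNT samples, with mitochondrial genome genes in red and circles on named genes. Most genes at 10 CPM or more lie below 20%, and the mitochondrial genes lie above them at all levels, up to 52.6% for MT-ND3.

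The nuclear transcripts also parted the samples. The first principal component of log2 CPM held 42.3% of the variance and placed replicates 1 to 3 at 9.64, 9.45 and 14.99 and replicates 4 to 6 at -12.2, -9.05 and -12.8. Without genes of the mitochondrial genome, but with their nuclear copies, it held 41.8% and kept this order of the sets. The labels give no batch, so no within-batch value can be given, and the study's mention of triplicate experiments is not tied to replicate numbers in them. Genes higher in replicates 4 to 6 at this component included ZNF460 (8.10 to 15.99 CPM in replicates 1 to 3 and 24.8 to 27.1 in replicates 4 to 6), GDF15, the collagen-modifying enzyme PLOD2, the transcription factor BHLHE40, and the giant proteins AHNAK and DYNC1H1. Genes higher in replicates 1 to 3 included PABPC1L, the cyclin CCNL2 and the noncoding RNA SNHG12. The nuclear copies MTND2P28 and MTATP6P1 also led this end, with loadings of 0.0569, the largest there, and 0.0505. Both were lower in replicate 2 than in replicate 4, and this component was thus not free of mitochondrial sequence. PABPC1L was at 20.3, 22.6 and 23.1 CPM in replicates 1 to 3 and at 4.90, 13.1 and 13.8 CPM in replicates 4 to 6. Across 9263 genes the loading fell with gene length (Spearman's rho -0.37, across genes, which are not independent replicates). The 500 genes at the end of replicates 4 to 6 had a median exonic length of 10841 bases, and the 500 at the other end 4281 bases. The part of length, RNA quality or library preparation in this split was not tested.

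Count files of the same sample differed by no more than sampling noise (chi-square per degree of freedom 0.985 to 1.01). Different samples differed by 2.57 (replicates 5 and 6) to 33.3 (replicates 3 and 5), so by this measure none was another sample's library deposited again. The measure rises with read depth, which was unequal between samples, so it does not rank the pairs of samples by likeness. Leaving out mitochondrial genes lowered the largest value to 16.4. The genes of lowest BCV at 10 CPM or more were SNRPD3, a splicing core protein, at 38.9 ± 0.498 CPM, and RIOK1, MOB3A, NFYC and COG5. Their BCV of 5.39 to 5.41% was above their own SD relative to the mean, because the estimate is drawn toward the trend. By the same estimate KLK3, with 10.7%, was above the median of all genes, and FOLH1, with 7.48%, was below it. In each of 26 gene lists with 3 or more detected members other than the mitochondrial one the median deviation stayed between -0.19 and 0.17 on the log2 scale.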

How the data were processed

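Per the labels, 6 SiNTCONTROL samples were used, each with 4 deposited files of counts, which the authors made by aligning single-end 40-base reads to GRCh37 with Ensembl release 64 and counting unique reads per gene. The submitters' processing notes name TopHat2 2.0.4, HTSeq 0.5.3p9 and DESeq 1.10.1, and the strand setting of the counting is not given in the sources used here. The label names the miRNeasy kit for RNA and flow-sorted cells, and the study's methods name Allprep.

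The 4 files of a sample were summed. The 5 HTSeq totals at the end were left out of library sizes (no feature 3.95 to 4.90%, ambiguous 2.85 to 2.92%, not unique 26.1 to 29.7%). Symbols, exon lengths and gene coordinates came from GENCODE 44 (GRCh38) by Ensembl identifier, which matched 82.8% of 54127 identifiers, holding 98.3 to 98.6% of reads. CPM (TMM) and BCV, estimated gene by gene with shrinkage, were computed in edgeR 4.0.16 (limma 3.58.1, R 4.3.3). Related genes were compared by exact sign-flip permutation tests over samples (Python 3.11.15, scipy 1.17.1, pandas 2.3.3, numpy 2.4.6) with Benjamini-Hochberg adjustment, and the code was tested on simulated data. Named genes were the 4 chosen markers, the 20 leading genes by CPM, up to 6 highest and 4 lowest members of each list, the compared pairs, and the genes most and least variable or leading the first component. Other named members, such as TMPRSS2, NDRG1 and IGF1, were chosen after their values were seen. Alternatives were DESeq2 1.42.0 size factors and dispersions, 1 count file per sample, other detection limits and gene lengths, and leaving out each replicate. Those without mitochondrial genes, and leaving out replicates for the mitochondrial share, were added after seeing the data. Some list members and compared pairs are counted but not reported here by name. Members and lists were chosen with earlier results of these data known.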

Additional observations from a re-analysis of the deposited data

How the results depend on the processing

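No paired analysis was possible because a single group is described and no values of separate groups, which a replicate block could pair, enter a test. With at least 1 count in any sample as the limit, 28992 genes were detected, and under the other limits and scalings 11930 to 13129. Without the expression filter the median BCV was 11.6%, against 7.92%. With the longest transcript length the median of all detected genes rose from 6.38 to 8.999 RPKM and the luminal median from 35.4 to 51.3 RPKM. In the same setting 13 of 33 list medians rose by over 1.5 times, among them coregulators (22.6 RPKM), glycolysis (42.5), the Kennedy pathway (10.3), fatty acid oxidation (16.9) and interferon-stimulated genes (0.380). Leaving out each replicate in turn gave a mitochondrial ratio of the highest to the lowest sample of 2.96 to 4.83, with 2.96 without replicate 3, and a PCYT1A to PCYT2 difference of -0.0364 to 0.0535, which became 0.61 with the median transcript length. With the median transcript length the log2 differences turned to 0.51 for KRT8 against KRT18, -1.15 for STEAP1 against STEAP2, -2.47 for HSP90AB1 against HSP90AA1, 0.17 for LDHA against LDHB and -0.28 for ODC1 against AMD1. With the longest transcript they turned to -0.0826 for FASN against ACLY and -0.0290 for SLC39A6 against SLC39A7. With the median transcript length FASN stood 3.04 above ACLY. The lengths alone differ between these settings. With 5 samples an exact sign-flip permutation test cannot go below p = 0.0625, so no pair passes when a replicate is left out, which says nothing about its stability. The lowest depth, in replicate 6, limits genes near 3 counts most.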
